A study of Mus musculus with 20 samples.

Results

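The genes of 7 epithelial antimicrobial proteins (Retnlb, Ang4, Reg3b, Reg3g, Lypd8, Lcn2 and Lyz1) were followed in the distal colon (DC) of mice fed resistant potato starch (RPS). They were taken by gene symbol and make up 7 of the 26619 genes counted. All 20 animals were male C57BL/6 mice that ate the Total Western Diet (TWD), a diet built to mirror human intake in the United States, for 6 weeks after weaning. They then ate the TWD for 3 more weeks with 0, 2, 5 or 10% RPS by weight (n = 5 mice per diet), so the TWD was common to all groups, the 0% RPS mice included. Each mouse gave a library of polyadenylated RNA from tissue near the anal end, and reads were counted per gene. Mice are named here as in their labels, and 3 of the 20 carry a second label with another RPS level. These are RS10_717 (5% here, 2% by the other label), RS10_725 (10% and 5%) and RS10_748 (2% and 10%).

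The colon epithelium keeps bacteria away from its surface with mucus and with secreted proteins that kill, bind or starve them. Goblet cells release mucins and resistin-like molecule beta, enterocytes release C-type lectins of the Reg3 family and cover their surface with Lypd8, and lysozyme comes from Paneth cells of the small intestine and from phagocytes. Many of these genes are low in resting tissue and are induced by microbes through cytokines such as interleukin-22 and interleukin-13.

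Library totals lay between 18.4 and 34.97 megacounts. The 0% RPS libraries held 31.2 to 34.97 megacounts and the 10% RPS libraries 18.4 to 26.6 megacounts, so depth and diet did not overlap between these groups. Levels are given as counts, and as counts per megacount (CPM) of a library total that was rescaled by the TMM method. In whole tissue, fewer cells of a type and less RNA per cell cannot be told apart. The library of RS10_721 (5% RPS) stood apart. Its 14 markers of pancreatic acinar cells summed to 7321 CPM, against 379 to 984 CPM in the other 19 libraries, and each of the 14 was higher there than in all of 18 other libraries. The library of RS10_784 (10% RPS) came next at 984 CPM, with 13 of the 14 markers above those 18 libraries. One of the 14, Cela1, had at least 367 CPM in every library and was most of the sum in those 18. Pnlip, another of them, had 1108 CPM in RS10_721 and 90.7 CPM in RS10_784, with a median of 0.0603 CPM over the 19 libraries other than RS10_721. RS10_721 also had the lowest sum of 6 posterior Hox genes (535 CPM, others 651 to 977 CPM) and of 8 smooth muscle markers (6082 CPM, others 7495 to 13330 CPM). Of the Hox genes, Hoxd13, Hoxd12, Hoxd11 and Hoxd10 were lowest there (54.8, 1.94, 6.83 and 7.51 CPM). Hoxa13 (51.4 CPM) and Hoxb13 (413 CPM) lay inside the range of the other libraries. Goblet cell markers (8122 to 17130 CPM over 9 genes) and surface colonocyte markers (4912 to 8192 CPM over 7 genes) were present in every library. They mark colon epithelium and do not place a library along the colon.

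The 7 genes spanned a wide range of levels. Scaled to exon length, the mean at 0% RPS was 6148 CPM per kb for Lypd8, 6.99 for Lyz1, 1.12 for Lcn2, 0.350 for Ang4, 0.0881 for Retnlb, 0.0517 for Reg3g and 0.00433 for Reg3b. Lypd8 alone took 0.820 to 1.17% of the scaled library. Retnlb, Reg3b and Reg3g thus rested on a few reads per library in the 0% RPS mice, and for them the count of each mouse is the datum. For each of the 7 genes, the ranges of diets next to each other in mean level overlapped.

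**Figure D1:**
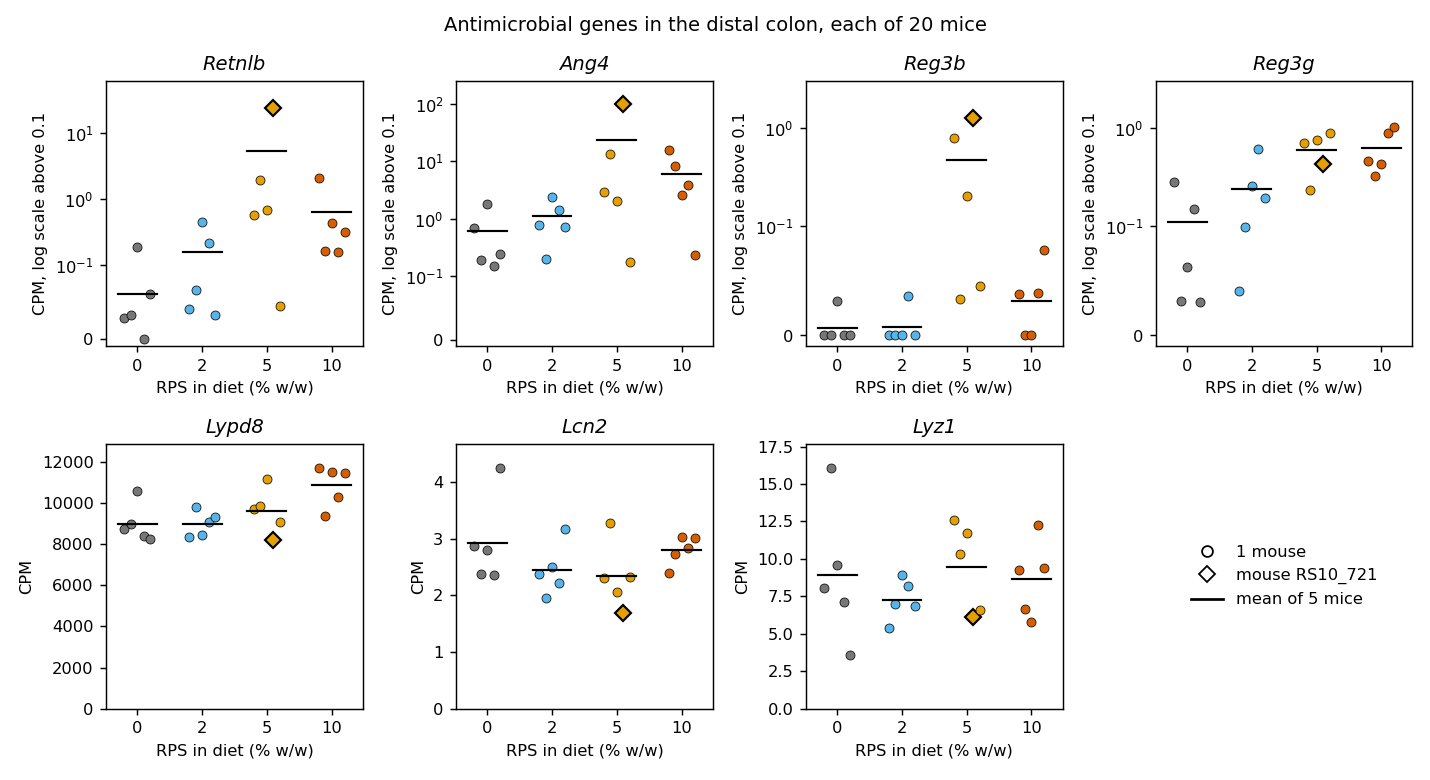
Level of each antimicrobial gene (CPM) in each of 20 mice by RPS content of the diet (% w/w), with the mean of 5 mice as a line and RS10_721 as a diamond. The upper row has a logarithmic axis above 0.1 CPM and the lower row a linear axis from 0. RS10_721 lies far above its diet for Retnlb and Ang4, whereas Reg3g in all 5 mice at 10% RPS lies above all 5 mice at 0% RPS.

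Retnlb encodes resistin-like molecule beta, a goblet cell protein that acts on Gram-negative bacteria. The gene (ENSMUSG00000022650) lies on the plus strand of chromosome 16 at 48637219 to 48639255 in GRCm39. At 0% RPS, Retnlb had 1, 1, 6, 0 and 2 counts in mice RS10_701, RS10_703, RS10_704, RS10_707 and RS10_708. At 2% RPS it had 1, 2, 1, 12 and 6 counts in mice RS10_709, RS10_712, RS10_748, RS10_715 and RS10_716, so both diets sat within a few reads of the floor. The 5% RPS mice RS10_717, RS10_718, RS10_719, RS10_721 and RS10_724 had 17, 58, 20, 651 and 1 counts. At 10% RPS, mice RS10_725, RS10_727, RS10_729, RS10_731 and RS10_784 had 54, 3, 10, 4 and 8 counts. RS10_721 alone held 75.9% of all Retnlb reads in the study, and RS10_724 on the same diet did not rise above the 0% RPS mice. The means were 0.0613 ± 0.0731 CPM (SD, n = 5) at 0% RPS, 0.159 ± 0.175 at 2%, 5.32 ± 10.1 at 5% and 0.623 ± 0.808 at 10%, with ranges that overlapped between each diet and the next in this order (0, 2, 10, 5%).

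The edgeR quasi-likelihood test gave Retnlb a log2 fold change of 6.36 ± 1.48 (SE) at 5% RPS, which did not pass Benjamini-Hochberg adjustment (adjusted p = 0.325), although 4 of 5 mice lay above all 0% RPS mice. DESeq2 called the same difference (log2 fold change 6.46, adjusted p = 0.00248). Without RS10_721 the estimates fell to 3.66 ± 1.01 by edgeR (adjusted p = 0.472) and 3.72 by DESeq2 (adjusted p = 0.0771). The mean at 5% RPS was then 0.801 ± 0.796 CPM (SD, n = 4). Without RS10_718, DESeq2 returned no adjusted p for Retnlb. For edgeR, Retnlb had passed the filter on low counts through mice fed RPS, since no 0% RPS mouse (at most 0.186 CPM) reached the minimum of that filter. At 10% RPS the edgeR log2 fold change was 3.31 ± 1.66 (adjusted p = 0.354), with 3 of 5 mice above all 0% RPS mice. An exact two-sided permutation test of log2 CPM gave an unadjusted p of 0.0238 at each of these 2 levels. For RS10_725, which holds the highest count at 10% RPS, and for RS10_717 at 5% RPS the other label gives another diet.

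Ang4 encodes angiogenin 4, a secreted ribonuclease of Paneth and goblet cells that kills gut bacteria. It lies on the minus strand of chromosome 14 at 51990721 to 52011053 (ENSMUSG00000060615), where 3 annotated genes (Ear-ps3, Gm62618 and Gm63604) overlap it on the other strand. Of its 50-base stretches, 5.78% also occur in transcripts of other genes, among them Ang5, so a small part of its reads could be shared. At 0% RPS, mice RS10_701, RS10_703, RS10_704, RS10_707 and RS10_708 had 24, 6, 59, 5 and 8 Ang4 counts, and at 2% RPS mice RS10_709, RS10_712, RS10_748, RS10_715 and RS10_716 had 19, 6, 22, 64 and 40. At 5% RPS, mice RS10_717, RS10_718, RS10_719, RS10_721 and RS10_724 had 89, 403, 61, 2747 and 4 counts. At 10% RPS, mice RS10_725, RS10_727, RS10_729, RS10_731 and RS10_784 had 411, 151, 60, 99 and 6 counts. As for Retnlb, RS10_721 was highest (64.1% of all Ang4 reads) and RS10_724 was among the lowest. The means were 0.619 ± 0.712 CPM at 0% RPS, 1.09 ± 0.833 at 2%, 23.4 ± 42.4 at 5% and 6.10 ± 6.07 at 10% (SD, n = 5), again with overlap between neighbours in the order 0, 2, 10 and 5%.

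For Ang4, edgeR gave log2 fold changes of 5.24 ± 1.40 at 5% RPS (adjusted p = 0.325) and 3.30 ± 1.36 at 10% RPS (adjusted p = 0.263), with 4 of 5 mice above all 0% RPS mice at each level. DESeq2 called the 5% difference (5.26, adjusted p = 0.0103) and not the 10% difference (3.31, adjusted p = 0.0859). Without RS10_721 the 5% estimate was 2.91 ± 1.1 by edgeR (adjusted p = 0.596), and DESeq2 no longer called it (2.91, adjusted p = 0.378). The exact permutation p was 0.0635 at 5% RPS and 0.0476 at 10% RPS, unadjusted. Without RS10_721 the mean at 5% RPS was 4.63 ± 5.93 CPM (SD, n = 4). At 10% RPS the higher counts were spread over 4 of 5 mice, with RS10_725, whose labels disagree, the highest.

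Retnlb and Ang4 varied together from mouse to mouse. Over the 20 mice their log2 CPM had Pearson's r of 0.868 and Spearman's rho of 0.785 (permutation p adjusted over 29 relations 0.00029 and 0.00145). The relation was r = 0.738 without the 2 mice farthest from the median of Retnlb, and 0.818 after the mean of each diet was taken away. Both genes were also related to Cdx2, a homeobox factor of the intestinal epithelium, with r of 0.709 and rho of 0.665 for Retnlb (adjusted p of 0.00377 and 0.00894) and r of 0.659 and rho of 0.651 for Ang4 (0.00831 and 0.0106). Without the 2 farthest mice these values were 0.538 and 0.478. Cdx2 was itself highest in RS10_721, at 84.6 CPM against 5.77 to 40.9 CPM in the other 19. The summed goblet cell markers had r of 0.371 and rho of 0.520 with Retnlb (adjusted p of 0.226 and 0.0685) and r of 0.347 and rho of 0.451 with Ang4 (0.259 and 0.114). RS10_721, at 12150 CPM of goblet markers, was inside the range of the others (8122 to 17130 CPM).

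**Figure D2:**
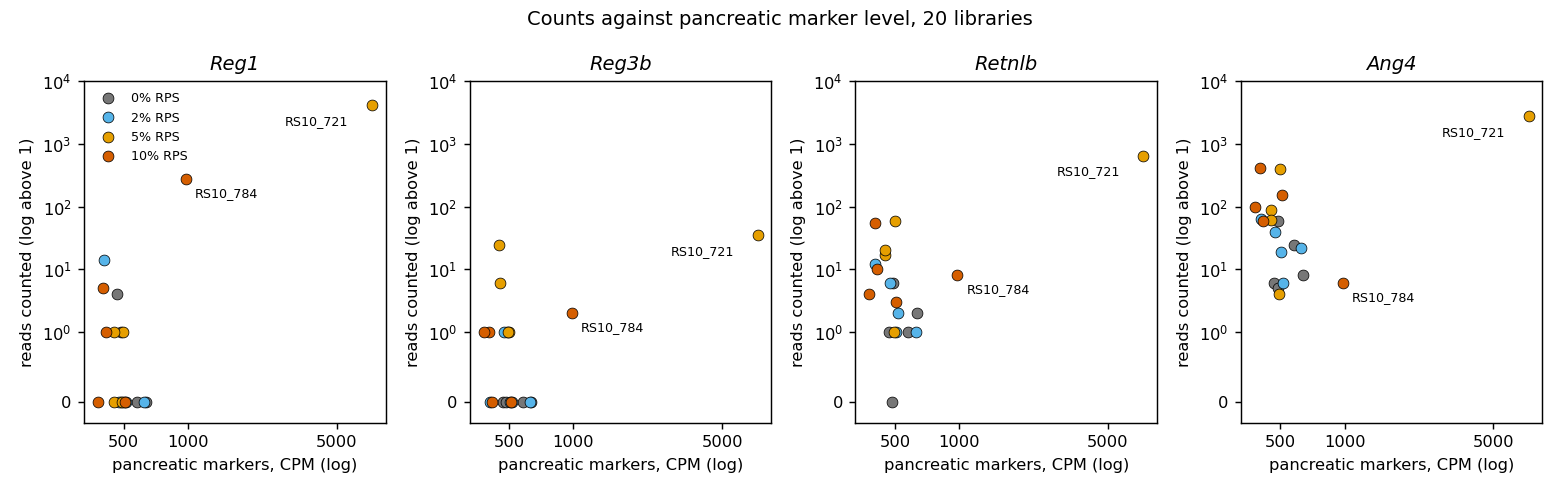
Reads counted for Reg1, Reg3b, Retnlb and Ang4 in each of 20 libraries against the summed CPM of 14 pancreatic acinar markers, both on logarithmic axes (linear below 1 read). RS10_721 (7321 CPM of markers) is highest for the 4 genes. RS10_784, second in markers, has 273 reads of Reg1, 8 of Retnlb and 6 of Ang4. In the 18 libraries other than RS10_721 and RS10_784, Cela1 is most of the marker sum.

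The pancreatic transcripts of RS10_721 stood beside its high counts. Reg1, a lectin gene of the pancreas from the same family as Reg3b and Reg3g, had 4170 counts in RS10_721, 273 in RS10_784 and at most 14 elsewhere. RS10_784 held the next highest pancreatic sum, with 8 Retnlb and 6 Ang4 counts. Its Retnlb level (0.314 CPM) was above the highest 0% RPS mouse (0.186 CPM), and its Ang4 level (0.235 CPM) was inside the range of the 0% RPS mice. RS10_715, with 14 counts of Reg1 and 72 of Pnlip, had 12 Retnlb and 64 Ang4 counts, the highest of the 2% RPS mice. RS10_718, with 58 Retnlb and 403 Ang4 counts, had 1 count of Reg1, and RS10_725, with 54 and 411, had 5. The part of the pancreatic transcripts, or of position along the colon, in the values of RS10_721 was not tested.

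Reg3b and Reg3g encode C-type lectins that bind bacterial cell walls, Reg3g acting on Gram-positive bacteria. Both lie on chromosome 6, Reg3b (ENSMUSG00000071356) on the plus strand at 78347640 to 78350455 and Reg3g (ENSMUSG00000030017) on the minus strand at 78443246 to 78445859. None of their 50-base stretches occurs in a transcript of another gene, so their reads can be told apart. Of the 7 genes, 6 have a promoter window in the RefSeq table used here (assembly GRCm38.p6, an earlier build than that of the counts). The 250 bases before the start of Reg3b, Reg3g and Ang4 are shown because Reg3b and Reg3g are close relatives whose letters can be compared, and because Ang4 holds one of the motifs. Capitals mark matches to TTCNNNGAA, the site of STAT factors that act downstream of interleukin-22, and to TTTATG or TTTATT, which CDX factors bind, on either strand.
Reg3b, chr6:78370635-78370884, plus strand: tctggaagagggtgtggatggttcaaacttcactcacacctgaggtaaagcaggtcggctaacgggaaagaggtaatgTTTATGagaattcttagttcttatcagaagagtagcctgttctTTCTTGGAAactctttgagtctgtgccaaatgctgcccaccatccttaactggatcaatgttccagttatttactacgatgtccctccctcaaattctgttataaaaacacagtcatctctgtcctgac
Reg3g, chr6:78468875-78469124, minus strand: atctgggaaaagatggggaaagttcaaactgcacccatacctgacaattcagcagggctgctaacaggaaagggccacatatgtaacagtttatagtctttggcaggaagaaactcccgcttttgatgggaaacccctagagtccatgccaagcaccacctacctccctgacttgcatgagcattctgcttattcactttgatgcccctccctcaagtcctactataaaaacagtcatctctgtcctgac
Ang4, chr14:51773591-51773840, minus strand: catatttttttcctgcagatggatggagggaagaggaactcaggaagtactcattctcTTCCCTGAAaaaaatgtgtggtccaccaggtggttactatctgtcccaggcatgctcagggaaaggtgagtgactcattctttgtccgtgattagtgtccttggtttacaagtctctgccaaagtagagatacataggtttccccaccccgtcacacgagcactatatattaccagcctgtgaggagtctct

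In a global alignment, 68.9% of 257 columns were identical between the Reg3b and Reg3g windows, against 47.1% between Reg3b and Ang4. Reg3b held TTCTTGGAA at 129 to 121 bases before its start and Ang4 held TTCCCTGAA at 192 to 184 bases, a motif that 7.02% of 32851 windows of this length hold. TTTATG was found in Reg3b at 172 to 167 bases before the start and in 10.8% of all windows, and TATAAA, searched on both strands as well and left in lower case, in both Reg3 windows and in 12.4% of all. Neither TTCNNNGAA nor the CDX letters were found in the Reg3g window, which says nothing about sites outside it. Lypd8 had no match, Lcn2 had TTTATG and Lyz1 had 2 matches to TTTATT (18.1% of all windows).

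Reg3g had 10, 1, 2, 5 and 1 counts at 0% RPS in mice RS10_701, RS10_703, RS10_704, RS10_707 and RS10_708. At 2% RPS it had 1, 3, 6, 7 and 17 counts in mice RS10_709, RS10_712, RS10_748, RS10_715 and RS10_716. The 5% RPS mice RS10_717, RS10_718, RS10_719, RS10_721 and RS10_724 had 21, 7, 22, 12 and 20 counts, and at 10% RPS mice RS10_725, RS10_727, RS10_729, RS10_731 and RS10_784 had 12, 6, 10, 23 and 26. Although the 10% RPS libraries were shallower than those at 0% RPS, all 5 lay above all 5 of the 0% RPS libraries in CPM, as did 1.13% of the 17893 tested genes at this level. No library dominated, the highest (RS10_784) holding 12.3% of all Reg3g reads. Mean levels were 0.111 ± 0.108 CPM at 0% RPS, 0.240 ± 0.222 at 2%, 0.599 ± 0.264 at 5% and 0.624 ± 0.310 at 10% (SD, n = 5), in the order of the dose and with overlap between neighbouring doses.

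Reg3g was the one of the 7 genes that edgeR called, and only in the trend over RPS percent, where 2.1% of tested genes were called, 1.15% higher and 0.95% lower. Its slope corresponded to a log2 change of 2.14 ± 0.56 from 0 to 10% RPS (adjusted p = 0.0474), and DESeq2 gave 2.31 (adjusted p = 0.00438). Reg3g had passed the filter on low counts through mice fed RPS, since no 0% RPS mouse (at most 0.283 CPM) reached the minimum of that filter. The edgeR call was close to its threshold. It was lost with no filter on low counts (adjusted p = 0.0612), after thinning all libraries to the smallest total (0.0963), without the 3 mice whose labels disagree (0.0850) and with groups taken from the other label (0.260). It was also lost in 13 of the 20 fits that left out 1 mouse (RS10_701, RS10_704, RS10_707, RS10_708, RS10_709, RS10_712, RS10_717, RS10_718, RS10_725, RS10_729, RS10_731, RS10_748 or RS10_784), with adjusted p between 0.0513 and 0.140 and log2 changes between 1.96 and 2.35. Against 0% RPS, the edgeR log2 fold changes of Reg3g were 1.06 ± 0.64 at 2%, 2.34 ± 0.58 at 5% and 2.43 ± 0.59 at 10% RPS, with adjusted p of 1.0, 0.325 and 0.0821. Without RS10_727 the 10% difference was called (2.59, adjusted p = 0.0342). The exact permutation p was 0.0159 at 5% RPS, where 4 of 5 mice lay above all 0% RPS mice, and 0.0079 at 10% RPS, the smallest that 5 against 5 mice allow, both unadjusted.

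Reg3b was almost absent. It had 0 counts in 10 of the 20 libraries, and a count of 0 allows up to 0.0850 to 0.163 CPM (3 counts, counting error only) across the libraries. At 0% RPS it had 0, 0, 1, 0 and 0 counts in mice RS10_701, RS10_703, RS10_704, RS10_707 and RS10_708, and at 2% RPS the only count was 1 in RS10_716. At 5% RPS mice RS10_717, RS10_718, RS10_719, RS10_721 and RS10_724 had 24, 1, 6, 35 and 1 counts, and at 10% RPS mice RS10_725, RS10_727, RS10_729, RS10_731 and RS10_784 had 1, 0, 0, 1 and 2. Only 3 libraries, all at 5% RPS, rose above the floor of 3 counts. Summed over mice, 67 counts at 5% RPS against 1 at 0% RPS gave a ratio of CPM of 79.2. Its exact 95% counting interval of 13.7 to 3180 leaves out the spread between mice. At 10% RPS, 4 counts against 1 gave 5.56 (0.55 to 274). RS10_721, which is part of the ratio at 5% RPS, held 47.95% of all Reg3b reads. Without RS10_721 the mean at 5% RPS was 0.268 ± 0.358 CPM (SD, n = 4), against 0.00621 CPM at 0% RPS.

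Reg3b did not pass the filter on low counts. With no filter, edgeR gave an adjusted p of 0.285 for 5% RPS and 0.0118 for any difference among the 4 diets, a test in which 0.0727% of genes were called with the filter. All 5 mice at 5% RPS lay above all 5 at 0% RPS in CPM (0.464% of the tested genes did so, exact permutation p = 0.0079, unadjusted). Of these 5, RS10_718 and RS10_724 had a single read each (0.0331 and 0.0447 CPM). RS10_704 at 0% RPS also had a single read (0.0311 CPM). The complete separation therefore rests on library depth, at values below the floor. RS10_717, with 24 reads, is at 2% RPS by its other label. RS10_719, with 6, and RS10_717 had 1 and 0 counts of Reg1. Reg3b and Reg3g were related by rank, with rho of 0.760 (adjusted p = 0.00304) and r of 0.462 (adjusted p = 0.102) over all mice, r of 0.632 without the 2 mice farthest in Reg3b and 0.196 after diet means were removed. Reg3b and Retnlb had r of 0.715 (adjusted p = 0.0123) and rho of 0.636 (adjusted p = 0.0126), and r of 0.499 without the 2 mice farthest in Retnlb.

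The other Reg genes were seen mainly where pancreatic markers were. RS10_721 held 370 counts of Reg2, 107 of Reg3d and 23 of Reg3a, and RS10_784 held 3, 8 and 0. In the other 18 libraries these 3 genes had at most 2 counts. Reg4, which colonic secretory cells express, was the family member the DC expressed at a high level, with means of 229 ± 48.3 and 258 ± 52.5 CPM in the 0 and 10% RPS mice (SD, n = 5). Its difference at 5% RPS was 0.32 ± 0.25 on the log2 scale (adjusted p = 0.720).

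Lypd8 encodes a glycosylphosphatidylinositol-anchored protein that binds flagella and keeps motile bacteria from the colon surface. It lies on the plus strand of chromosome 11 at 58269863 to 58281554 (ENSMUSG00000013643). At 0% RPS, mice RS10_701, RS10_703, RS10_704, RS10_707 and RS10_708 had 8715, 9001, 10590, 8401 and 8263 CPM. At 2% RPS, mice RS10_709, RS10_712, RS10_748, RS10_715 and RS10_716 had 8370, 9793, 9321, 8423 and 9057 CPM, within the range of the 0% RPS mice. The 5% RPS mice RS10_717, RS10_718, RS10_719, RS10_721 and RS10_724 had 9721, 9878, 11160, 8200 and 9092 CPM, and at 10% RPS mice RS10_725, RS10_727, RS10_729, RS10_731 and RS10_784 had 11710, 9364, 11510, 10290 and 11450 CPM. At 10% RPS, 3 of the 5 mice lay above all 0% RPS mice, by a margin small against the level itself.

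Mean Lypd8 was 8994 ± 938, 8993 ± 605, 9610 ± 1089 and 10870 ± 1008 CPM at 0, 2, 5 and 10% RPS (SD, n = 5). The edgeR log2 fold change was 0.27 ± 0.09 at 10% RPS (adjusted p = 0.176), 0.10 ± 0.09 at 5% (adjusted p = 0.780) and -0.00024 ± 0.09 at 2% (adjusted p = 1.0). The exact permutation p at 10% RPS was 0.0238, unadjusted. The trend was 0.29 ± 0.09 from 0 to 10% RPS (adjusted p = 0.0710), which DESeq2 called (0.30, adjusted p = 0.0129) and edgeR called when RS10_704, RS10_721 or RS10_727 was left out (0.34, 0.30 and 0.34, adjusted p of 0.0288, 0.0457 and 0.0258). With 172099 to 340972 Lypd8 reads per library, the depth did not limit this comparison.

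**Figure D3:**
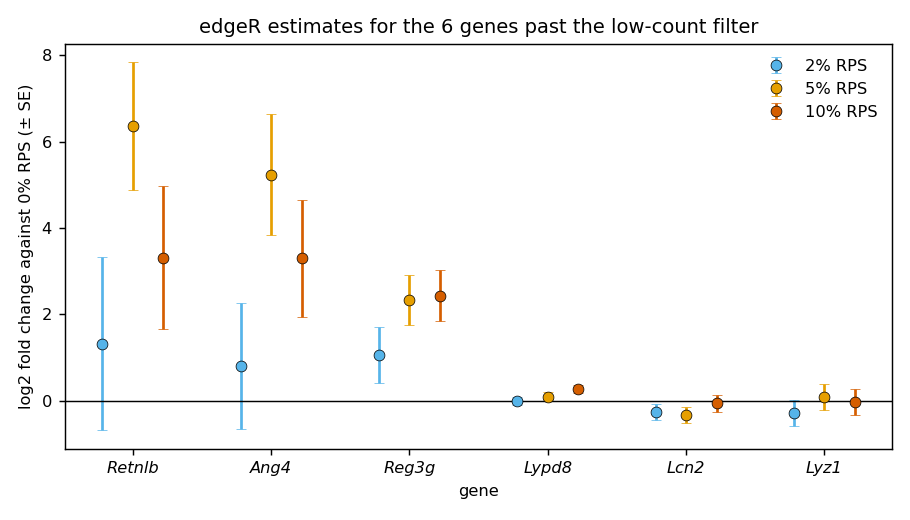
Log2 fold change against 0% RPS (edgeR estimate, error bars ± SE) of the 6 antimicrobial genes past the low-count filter at 2, 5 and 10% RPS. Retnlb and Ang4 have the largest estimates and the widest errors, Reg3g lies at 2.34 and 2.43 at 5 and 10% RPS with an SE under 0.6, and Lypd8, Lcn2 and Lyz1 lie near 0.

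Lypd8 was higher where surface colonocyte markers were higher. The 7 surface markers summed to 4912 to 6730 CPM at 0% RPS, 4928 to 6458 at 2%, 5816 to 7429 at 5% and 7034 to 8192 at 10%, so that the 10% RPS mice all lay above the 0% RPS mice. Car4, a carbonic anhydrase of surface cells, was called by edgeR at 10% RPS (0.0391% of all tested genes). Car4, Slc26a3 (a chloride exchanger), Krt20 (a keratin) and Aqp8 (a water channel) were called higher in the trend, 4 of 7 markers against 1.15% of all tested genes. The 6 posterior Hox genes, which mark position along the colon, ran lower, with sums between 745 and 977 CPM in the 0% RPS mice and between 651 and 749 CPM in the 10% RPS mice. Of these 6, edgeR called Hoxb13 lower in the trend (-0.32 ± 0.08, adjusted p = 0.0425), as 0.95% of all tested genes were. Lypd8 had r of 0.733 and rho of 0.692 with the summed markers (permutation p adjusted over the 29 relations 0.00290 and 0.00574), with r of 0.676 without the 2 farthest mice and 0.459 after diet means were removed. Reg3g had r of 0.674 and rho of 0.699 (adjusted p of 0.00754 and 0.00574), with r of 0.577 without the 2 farthest mice and 0.238 after diet means were removed. The part of surface cell number, or of position along the colon, in the levels of Lypd8 and Reg3g was not tested.

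Lcn2 encodes lipocalin 2, which withholds iron from bacteria by binding their siderophores and rises in inflamed gut. It lies on the minus strand of chromosome 2 at 32274645 to 32278264 (ENSMUSG00000026822). At 0% RPS, mice RS10_701, RS10_703, RS10_704, RS10_707 and RS10_708 had 101, 75, 90, 79 and 141 counts, and at 2% RPS mice RS10_709, RS10_712, RS10_748, RS10_715 and RS10_716 had 59, 59, 98, 68 and 62. At 5% RPS, mice RS10_717, RS10_718, RS10_719, RS10_721 and RS10_724 had 70, 99, 61, 47 and 52 counts, and at 10% RPS mice RS10_725, RS10_727, RS10_729, RS10_731 and RS10_784 had 63, 50, 71, 73 and 77. In CPM, 4 of 5 mice at 5% RPS lay below all 0% RPS mice (exact permutation p = 0.1825, unadjusted), while the 10% RPS mice overlapped with them. RS10_717 and RS10_724, at 2.313 and 2.322 CPM, were just below the lowest 0% RPS mouse (RS10_707, 2.351 CPM). The means were 2.93 ± 0.776 CPM at 0% RPS, 2.45 ± 0.458 at 2%, 2.33 ± 0.588 at 5% and 2.80 ± 0.261 at 10% (SD, n = 5). The log2 fold changes were -0.26 ± 0.19, -0.33 ± 0.19 and -0.06 ± 0.19 (adjusted p of 1.0, 0.617 and 0.910), none called by edgeR or DESeq2. Markers of neutrophils, another source of Lcn2, were mixed. Elane had at most 1 count per library, Mpo at most 3 and S100a8 and S100a9 at most 6 each, whereas Csf3r had 15 to 67 and Ly6g 3245 to 12133. The 13 macrophage and neutrophil markers summed to 461 to 610 CPM at 0% RPS and 370 to 694 CPM over the other diets, of which Ly6g, with a median of 201 CPM, was a large share. Of the 9 markers tested, 7 were lower at 5% RPS at an unadjusted p under 0.05 (9.19% of all tested genes passed it in either direction), with a median log2 fold change of -0.49 over the 9. Cd68, a macrophage gene, had -0.73 ± 0.17 at 5% RPS (edgeR adjusted p = 0.306) and was called lower by DESeq2 at 5% RPS (adjusted p = 0.0187), at 10% RPS and in the trend. The part of these cells in the level of Lcn2 was not tested.

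Lyz1 encodes the lysozyme of Paneth cells, which cleaves bacterial cell walls. It lies on the minus strand of chromosome 10 at 117123698 to 117128775 (ENSMUSG00000069515), and 15.4% of its 50-base stretches also occur in Lyz2 or Gm68107, so its counts are uncertain by that part. At 0% RPS, mice RS10_701, RS10_703, RS10_704, RS10_707 and RS10_708 had 285, 508, 309, 240 and 119 counts, and at 2% RPS mice RS10_709, RS10_712, RS10_748, RS10_715 and RS10_716 had 134, 211, 212, 242 and 230. The 5% RPS mice RS10_717, RS10_718, RS10_719, RS10_721 and RS10_724 had 381, 312, 346, 170 and 148 counts, and at 10% RPS mice RS10_725, RS10_727, RS10_729, RS10_731 and RS10_784 had 244, 122, 136, 316 and 240. The 4 diets overlapped throughout, with means of 8.90 ± 4.58, 7.28 ± 1.36, 9.47 ± 2.96 and 8.68 ± 2.56 CPM (SD, n = 5). The log2 fold changes were -0.29 ± 0.30, 0.09 ± 0.30 and -0.03 ± 0.30 at 2, 5 and 10% RPS (adjusted p of 1.0, 0.945 and 0.977).

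Of the Paneth cell markers, the defensin gene Defa30 had 0 counts in all 20 libraries and Mptx2 at most 2, while Mmp7, a protease that Paneth cells and other epithelia make, reached 293 counts in RS10_707 with a median of 2. Itln1, an intelectin of Paneth and goblet cells, had 5 to 72 counts. These 4 markers, of 9 listed, summed to 0.435 to 9.52 CPM, and the other 5 were not analysed here. The pairs of Lyz1 with B-cell markers and with Lyz2 were among 8 pairs added after the data were seen. The adjusted p does not account for that choice. Lyz1 varied with transcripts of B cells. Its r with 6 summed B-cell follicle markers was 0.734 and its rho 0.699 (permutation p adjusted over the 29 relations 0.00145 and 0.00574), with r of 0.606 without the 2 mice farthest in Lyz1 and 0.781 after diet means were removed, and RS10_708, lowest in Lyz1, was lowest in these markers (7.80 CPM, against 39.2 to 107 CPM in the others). With Lyz2, the lysozyme of macrophages, its r was 0.228 and its rho 0.385 (adjusted p of 0.451 and 0.159), with r of 0.553 without the 2 mice farthest in Lyz1. Lyz2 itself averaged 171 ± 32.6 and 150 ± 22.5 CPM in the 0 and 10% RPS mice (SD, n = 5), with log2 fold changes of -0.24 at 2% and -0.32 at 5% RPS (adjusted p of 1.0 and 0.509).

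**Figure D4:**
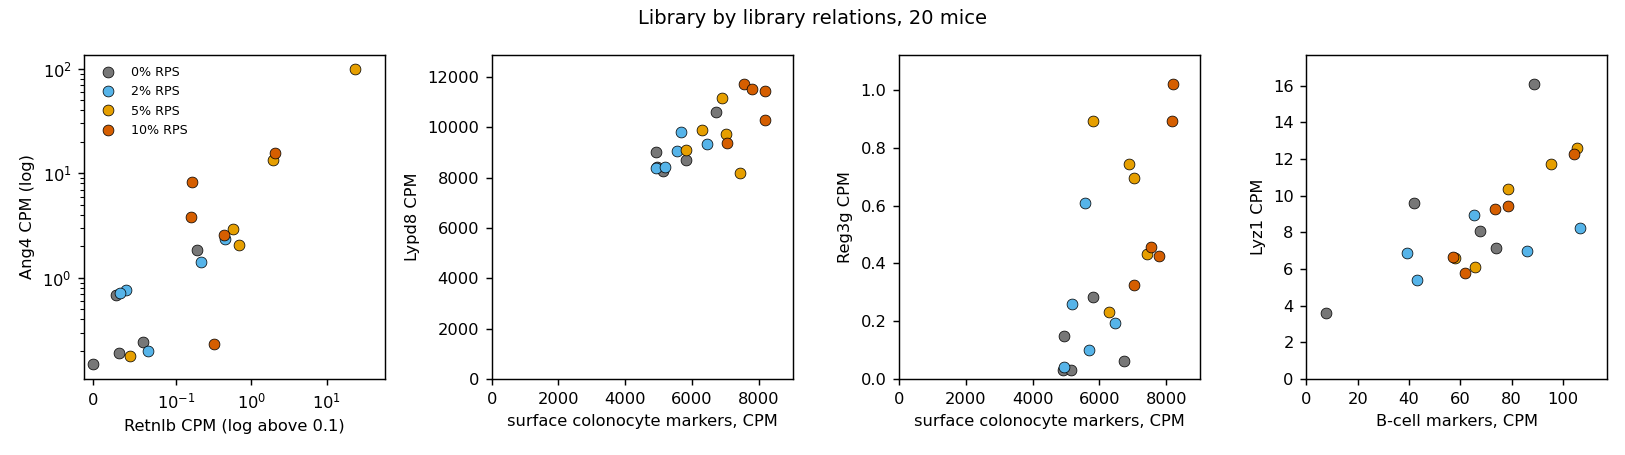
Ang4 against Retnlb, Lypd8 and Reg3g against the sum of 7 surface colonocyte markers, and Lyz1 against the sum of 6 B-cell markers, in CPM for each of 20 mice coloured by diet. Ang4 against Retnlb is on logarithmic axes (linear below 0.1 CPM of Retnlb). Pearson's r on log2 CPM was 0.868, 0.733, 0.674 and 0.734 in this order.

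Counted over the 7 genes, the tests called few. edgeR tested 6 of them, since Reg3b did not pass its filter. It called 0 at 2% RPS, where 0.0% of all tested genes were called, 0 at 5% RPS (0.0%) and 0 at 10% RPS (0.0391%). In the trend it called 1 (Reg3g, against 2.1%), and for any difference among diets 0 (0.0727%). At an unadjusted p under 0.05 the numbers were 0, 3 and 3 genes at 2, 5 and 10% RPS and 2 in the trend, against 1.41, 9.19, 15.2 and 19.1% of all tested genes. DESeq2 called 0 at 2% RPS (0.00386% of its genes), 2 at 5% RPS (Retnlb and Ang4, against 0.195% of its genes, 0.141% higher and 0.0538% lower), 0 at 10% RPS (1.24%, of which 0.818% higher and 0.427% lower), 3 in the trend (Ang4, Reg3g and Lypd8, all higher, against 5.61% of its genes, 3.22% higher and 2.38% lower) and 3 for any difference (Retnlb, Ang4 and Reg3g, 2.01%). DESeq2 gave no adjusted p for Reg3g or Reg3b at 5 and 10% RPS, nor for Reg3b and Retnlb in the trend and Reg3b for any difference, so these are not among the genes it could call. At 2% RPS none of the 7 genes had all 5 mice above all 0% RPS mice, as 0.112% of tested genes did. Of 21 exact permutation tests over the 7 genes and 3 levels, 7 had an unadjusted p under 0.05. The test was not run on other genes, so no share over all genes stands beside this number. Among those under 0.05 was Reg3b at 5% RPS, where 2 of the 5 mice had a single read, as had the highest 0% RPS mouse. The 3 comparisons share the 0% RPS mice and are not independent.

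Among 28 other antimicrobial genes, 21 were tested and 3 rose in the trend by edgeR, where 1.15% of tested genes did. They were Duox2 (0.92 ± 0.23 from 0 to 10% RPS, adjusted p = 0.0404) and Duoxa2 (1.23 ± 0.30, adjusted p = 0.0359), the oxidase that makes hydrogen peroxide at the epithelial surface and its maturation factor, and Plac8 (0.56 ± 0.13, adjusted p = 0.0264), which epithelial and myeloid cells express. With the other label, or without the 3 mice whose labels disagree, 0 of the 21 were called, as also when RS10_708 or RS10_784 was left out, and with no filter on low counts 1 was. RS10_725, whose labels disagree, was highest for Duox2 (216 CPM) and Duoxa2 (35.8 CPM). Duox2 averaged 80.6 ± 18.6 and 148 ± 57.4 CPM in the 0 and 10% RPS mice (SD, n = 5). At 10% RPS edgeR called 0 of the 21, and DESeq2 called Duox2, Duoxa2 and Pla2g2a higher, against 0.818% of its genes. Pla2g2a, a phospholipase gene whose protein was not measured, had an edgeR log2 fold change of 2.38 ± 0.69 (adjusted p = 0.120, and DESeq2 adjusted p = 0.0312). Pla2g2a had 2.47 ± 0.68 at 5% RPS (adjusted p = 0.325), and its highest count was 108 in RS10_721, against a median of 15. The median log2 fold change of the 21 was 0.46 at 10% RPS and 0.25 at 5% RPS, against -0.01 over all tested genes at each.

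The remaining genes with the largest estimates in this list did not pass. Nos2, the inducible nitric oxide synthase, had 2.41 ± 0.75 at 5% RPS and 1.44 ± 0.75 at 10% RPS (adjusted p of 0.357 and 0.373), and RS10_719 alone reached 22.9 CPM. Saa2, an acute phase protein, had -1.20 ± 0.39 at 10% RPS and -0.49 ± 0.36 at 2% RPS (adjusted p of 0.151 and 1.0). At 2% RPS, Pla2g2a had 0.90 ± 0.72 and Ltf, the iron-binding lactoferrin, 0.56 ± 0.57 (adjusted p of 1.0 for both). Duoxa2 had 0.75 ± 0.32 at 5% RPS (adjusted p = 0.494).

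**Figure D5:**
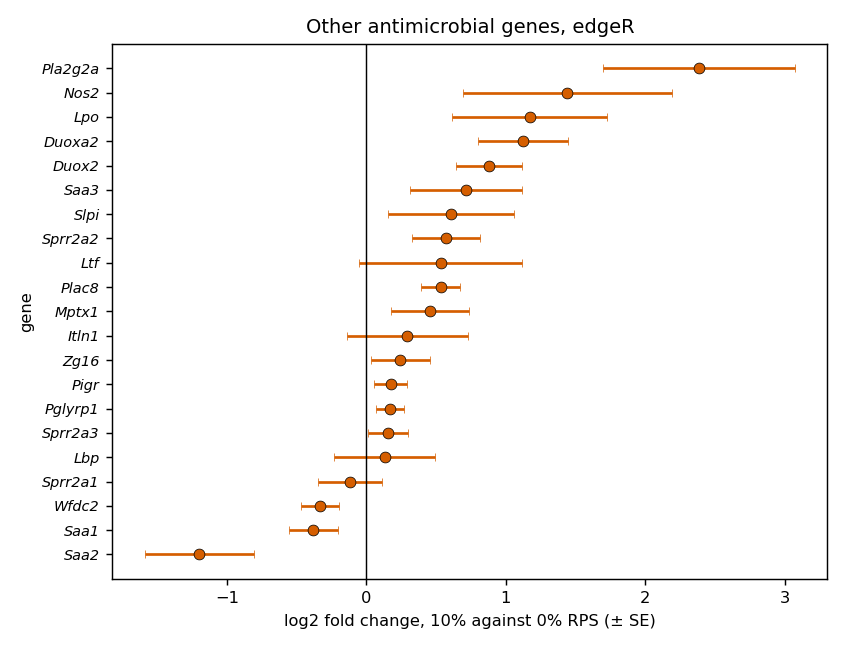
Log2 fold change at 10% RPS against 0% RPS (edgeR estimate, error bars ± SE) of the 21 tested genes of the list of other antimicrobial genes. Of these estimates, 17 lie above 0, with Pla2g2a highest at 2.38 and Saa2 lowest at -1.20.

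Of the cytokines that induce these proteins, Il22 had at most 1 count per library and was 0 in 17 of 20, and Il17a and Il13 had at most 3. Il33 (95 to 246 counts) and Il4 (65 to 131 counts) were detected in every library. Of 31 inducing cytokines, receptors and sensors, 26 were tested and 1 was called in the trend by edgeR, Il18, a cytokine that epithelial cells store (0.38 ± 0.09 on the log2 scale, adjusted p = 0.0372), where 1.15% of all tested genes were called higher. With the other label, or without the 3 mice whose labels disagree, 0 of the 26 were called, as also when RS10_708, RS10_709, RS10_712, RS10_716, RS10_725, RS10_729 or RS10_784 was left out. Il18 averaged 102 ± 15.7 and 129 ± 14.5 CPM in the 0 and 10% RPS mice (SD, n = 5). DESeq2 called 5 of the 26 higher in the trend (Il17rc, Socs3, Il13ra1, Il18 and Cdx2), against 3.22% of its genes. It called 1 at 5% RPS (Socs3) and 1 at 10% RPS (Cdx2), against 0.195 and 1.24% of its genes. Socs3, a feedback inhibitor of STAT signalling, had log2 fold changes of 0.44 ± 0.54, 2.10 ± 0.54 and 1.56 ± 0.54 at 2, 5 and 10% RPS (adjusted p of 1.0, 0.325 and 0.183), and DESeq2 called it at 5% RPS (adjusted p = 0.0342). Its highest level was 79.5 CPM in RS10_719 (5% RPS), against a median of 10.1 CPM. Cdx2 had 0.69 ± 0.44, 1.63 ± 0.44 and 1.44 ± 0.44 (adjusted p of 1.0, 0.325 and 0.139), and DESeq2 called it at 10% RPS (adjusted p = 0.0381). Tlr5, the receptor of flagellin, had -0.45 ± 0.15 at 5% RPS (adjusted p = 0.366), and Tslp had 0.18 ± 0.23 at 2% RPS and -0.51 ± 0.24 at 10% RPS (adjusted p of 1.0 and 0.318). The median of the 26 was 0.07 at 5% RPS and 0.15 at 10% RPS.

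Relatives of the 7 genes were not called. Of 15 relatives listed, the Reg genes above included, 12 were analysed and 7 tested, and none was called by edgeR or DESeq2 at any level. At an unadjusted p under 0.05 there were 0, 2 and 0 at 2, 5 and 10% RPS, both of the 2 lower (Lyz2 and Rnase4), against 1.41, 9.19 and 15.2% of all tested genes. Retn, the resistin of fat cells, had 0.25 ± 0.77, 0.79 ± 0.76 and 0.53 ± 0.76 at 2, 5 and 10% RPS (adjusted p of 1.0, 0.778 and 0.797). Retnla, resistin-like molecule alpha, had 0.39 ± 0.27 at 10% RPS (adjusted p = 0.525). Lypd8l, the neighbour in name of Lypd8, had 0.21 ± 0.36 at 2% RPS and 0.64 ± 0.36 at 10% RPS (adjusted p of 1.0 and 0.413), with 11.2 ± 6.13 CPM at 10% RPS (SD, n = 5).

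For the 4 genes with at least 1 CPM in 5 or more libraries, the tested genes with the most similar pattern over the 20 libraries were picked by Spearman's rho of log2 CPM, and rho and r are given as a description. They were Cyp2e1 (rho 0.806, r 0.598), Dclk1 (0.801, 0.801) and Spx (0.795, 0.699) for Ang4. For Lypd8 they were Gm49688 (0.913, 0.868), Plekhm1 (0.881, 0.812) and Gm11775 (0.872, 0.703). For Lcn2 the best matches were weaker, with 1110046J04Rik (0.747, 0.622), Cript (0.713, 0.679) and Igfbp2 (0.698, 0.696). For Lyz1 they were Bank1 (0.800, 0.745), Rhoh (0.782, 0.756) and Map4k1 (0.780, 0.764), genes known from lymphocytes.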

How the data were processed

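RNA of the DC from 20 mice was sequenced as stranded polyadenylated libraries with single-end reads of 50 bases. The authors trimmed low-quality bases, mapped reads to GRCm39 in CLC Genomics Workbench and deposited raw counts per gene, with no mice pooled. The annotation release, whether counting used strand, and what was done with multiply mapping reads are not given in the sources used here.

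Groups followed the description label. Of 26619 gene identifiers, 26338 were found in GENCODE vM39, which gave symbols and positions (1-based). The 7 genes and the gene lists were chosen with earlier results of these data known. Counts were fitted in R 4.3.3 with edgeR 4.0.16 (filterByExpr with a minimum count of 10, which kept 17893 genes, TMM, glmQLFit with robust estimation, glmQLFTest) in 1 fit over the 4 diets. P-values were adjusted over all tested genes by the Benjamini-Hochberg method. A difference was called where the adjusted p did not exceed 0.05 and the fold change reached 1.5, and trends and the test of any difference without the fold threshold. DESeq2 1.42.0 was the first alternative, and adjusted p-values are those of edgeR unless DESeq2 is named. Log2 CPM used a prior count of 2. Correlations used 100000 permutations, for 21 pairs of the 7 genes and 8 pairs with other measures that were added after the data were seen, and the smallest p they give is 1e-05.

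Exact permutation tests used 252 splits and are two-sided. All 7 genes were named, and from the lists of other antimicrobial, inducing and related genes those past a threshold and the 3 with the largest change at each level. In simulated counts for 10% against 0% RPS over 17893 genes, edgeR recovered 96.0% of 200 changed genes with 3.03% of calls false, and DESeq2 96.5% with 6.76% false and 1 call where nothing had been changed. All changed genes had a large change of the same size, drawn from a negative binomial model without outlying libraries. These rates therefore say nothing about small changes or genes led by 1 library, and are no measure of power for the 7 genes. Pairs of libraries within a diet differed by more than sampling noise, with a chi-square per degree of freedom of at least 9.74. Mouse numbers are unique, so nothing pairs mice across diets. Intervals and floors cover counting error only.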

Additional observations from a re-analysis of the deposited data

Results flagged for a closer look

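In 6 of 28 groups of 5 mice, the highest mouse was separated from the next by more of the range than Dixon's 95% critical value allows. That value assumes a normal distribution, which CPM near 0 do not have, so the 6 flags are a description and cannot be set against chance. For Retnlb, RS10_721 had 23.4 CPM at 5% RPS against 1.92 CPM in the next mouse, and RS10_725 had 2.05 CPM at 10% RPS against 0.427 CPM. For Ang4, RS10_721 had 98.7 CPM at 5% RPS against 13.4 CPM in the next mouse. The Retnlb and Ang4 values of RS10_721 come from the library with the most pancreatic transcripts, and their part in these values was not tested. RS10_725 is at 5% RPS by its other label. For Reg3b, RS10_704 at 0% RPS (0.0311 CPM) and RS10_716 at 2% RPS (0.0358 CPM) stood apart by 1 read each, with 0 reads in the other mice of their diets. A single read beside zeros is always flagged by this rule. For Lcn2, RS10_708 at 0% RPS had 4.25 CPM against 2.86 CPM in the next mouse, and it was also lowest in Lyz1 (3.59 CPM) and in B-cell markers.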

How the results depend on the processing

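Of 679 values of single genes under an alternative, 624 kept their direction and side of the threshold. Counts of called genes that moved by over 1.5 times were these. DESeq2 gave 2 antimicrobial genes at 5% RPS, 3 in the trend and 3 for any difference, 3 other antimicrobial genes at 10% RPS and 4 for any difference, and 1, 1, 5 and 2 inducing genes at 5% RPS, at 10% RPS, in the trend and for any difference. Of all its genes, DESeq2 called 0.195% at 5% RPS, 1.24% at 10% RPS, 5.61% in the trend and 2.01% for any difference. No filter gave 0 antimicrobial and 1 other antimicrobial gene in the trend, and 1 antimicrobial gene for any difference. The other label, or omission of the 3 mice, gave 0 trend genes in all 3 lists. Thinning gave 0 antimicrobial trend genes, and RLE scaling 2 inducing ones. Leaving out 1 mouse gave 0 to 2 antimicrobial, 0 to 4 other antimicrobial and 0 to 3 inducing genes in the trend, and 0 to 1, 0 to 2 and 0 to 1 at 10% RPS. DESeq2 without 1 mouse at 0 or 5% RPS, added after the data were seen, gave 0 to 2 antimicrobial genes at 5% RPS, with 0 without RS10_721 and 1 without RS10_718, where Retnlb had no adjusted p. Values near 0 changed sign. With the other label they were 0.0126 for Lypd8 at 2% RPS, 0.0161 and 0.10 for Lcn2 at 10% RPS and in the trend, and -0.0114 and -0.0878 for Lyz1 at 5% RPS and in the trend. Without the 3 mice they were 0.0545 for the Lcn2 trend and -0.0277 for Lyz1 at 5% RPS, and after thinning 0.0196 for the Lcn2 trend. Without 1 mouse they ran from -0.0334 to 0.0657 for Lypd8 at 2% RPS, from -0.13 to 0.11 for Lcn2 at 10% RPS and -0.0653 to 0.14 in its trend, and for Lyz1 from -0.49 to 0.0388, -0.11 to 0.42 and -0.23 to 0.30 at 2, 5 and 10% RPS and -0.0541 to 0.34 in its trend. The cause of these changes was not tested. With 0 to 10 reads per library at 0% RPS, the depth limits Reg3g, Retnlb and Reg3b.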
